A study of Mus musculus with 4 samples.

Results

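The Ms4a genes encode small proteins that cross the membrane 4 times and sit at the surface or in inner membranes of immune cells. Of the genes listed as this family's members, all 8 were found on the array by their gene symbol: Ms4a1, Ms4a4b, Ms4a4c, Ms4a4d, Ms4a6b, Ms4a6c, Ms4a6d and Ms4a7. They were read by 16 probe sets, out of 18193 genes with a symbol and 45037 probe sets. A probe set is the group of short probes that reads one transcript. The members were compared between CD8α+ dendritic cells and CD8α- dendritic cells of the spleen of C57BL/6 mice, with 2 arrays (replicates 1 and 2) per population and no treatment in either. The labels give no age, no genetic change and no count of animals behind an array, so the p-values speak only to how much these 4 arrays vary, and that variation may be technical. The question the design poses is which genes differ between the populations.

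The best known member, Ms4a1 (CD20), is a surface protein of B cells and the target of therapeutic antibodies. Another family gene, Ms4a2, is the beta chain of the high-affinity IgE receptor of mast cells. Several further members are known from myeloid cells, and in humans the locus that holds MS4A4A and MS4A6A is tied to Alzheimer's disease and to soluble TREM2. CD8α+ dendritic cells belong to the type 1 conventional lineage, which presents antigen of dying cells, and the CD8α- cells are mostly type 2 conventional cells. In a bulk sample, fewer cells that carry a transcript and less of it per cell cannot be told apart.

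Signals are MAS5 values after quantile normalization, on a linear scale, and differences are the mean log2 signal in CD8α+ cells minus that in CD8α- cells, ± the standard error of the limma fit (n = 2 arrays per group). A probe set was tested when its mean normalized signal reached the median of all, 23.7. A signal counts as above background when it exceeds the highest Bacillus control of its array, which read 31.8 and 22.6 on CD8α+ replicates 1 and 2 and 29.2 and 35.6 on CD8α- replicates 1 and 2. Levels of different probe sets cannot be set against each other, so each is compared only with itself across arrays. Summed signals of marker genes, given below, are the exception and mostly follow their brightest probe sets.

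The labels were checked on Cd8a, whose brightest probe set read 2139 and 2468 in CD8α+ cells and 15.8 and 27.9, below background, in CD8α- cells. Of 7 type 1 markers found by symbol, 6 had both CD8α+ arrays above both CD8α- arrays. The exception, Batf3, read 121 and 149 in CD8α+ cells and 156 and 170 in CD8α- cells. Of 5 tested type 2 markers all 5 had both CD8α+ arrays below both CD8α- arrays. Among all tested genes, 25.6% lay apart higher in CD8α+ cells and 28.3% lower. All 6 shared dendritic cell markers were above background on every array. Of these, 4 had both CD8α+ arrays above both CD8α- arrays, H2-Ab1 by a difference of only 0.06, and 1, Itgax, lay the other way. The CD8α- arrays were less alike (r = 0.836 across tested probe sets) than the CD8α+ arrays (r = 0.957). CD8α- replicate 2 was dim as deposited, with a median signal of 17.4 against 22.9 to 35.1 on the other 3. On that array Gapdh read 10.7 times more at the 3′ than at the 5′ end, against 1.53 to 2.02 times on the others. The same ratio for Actb went the other way, at 0.76 on that array against 1.62 to 1.69 on the others. The part of these array differences in the results on Ms4a genes was not tested, and values without each array are given where they change a count.

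The family split in its direction. Of the 7 members that could be tested, 6 were lower in CD8α+ cells, namely Ms4a6b, Ms4a4c, Ms4a4b, Ms4a6d, Ms4a6c and Ms4a7, and Ms4a1 was higher. On the probe set that represents each gene, both arrays of one population lay apart from both of the other in all 7, with 6 lower and 1 higher. Among all 10531 tested genes, groups lay apart in 53.9%, 28.3% lower and 25.6% higher. The median difference over the 7 was -1.72, against -0.02 over all tested genes. Ms4a4d was too dim to be tested.

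After Benjamini-Hochberg adjustment over all probe sets by limma, no probe set of 22519 (0%) and no gene of 10531 (0%) fell below 0.05, and the members' adjusted p-values lay between 0.134 and 0.357. At an unadjusted p under 0.05, 5 members were lower and 1 higher, against 8.84% of all genes lower and 7.18% higher (16.0% in all, 1687 genes). The exception was Ms4a7. The count of 6 members became 3 without CD8α+ replicate 1, 3 without CD8α+ replicate 2 and 3 on the scale as deposited. Of all genes, 5.77%, 6.64% and 12.95% were at that level in those fits. An exact permutation test of 2 arrays against 2 cannot give a two-sided p below 0.333 and was not used.

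A single factor per array moves all genes together, whereas quantile normalization moves them by amounts that depend on their signal. On CD8α- replicate 2 it took Ms4a6c from 384 to 874 and H2-Ab1 from 5317 to 6701. Direction was therefore compared under each scaling. Without any matching the median gene was 0.67 higher in CD8α+ cells, with median centring it was 0.69 higher, and with a common trimmed mean it was 0.17 lower. Of the genes at an unadjusted p under 0.05, the lower ones made up 55.2% after quantile normalization, 18.4% as deposited, 12.9% with median centring and 73.4% with the trimmed mean. The 6 lower members and Ms4a1 had the same signs under all 3 of these scalings, both in themselves and relative to the median gene. On the deposited scale the groups of Ms4a7 overlapped.

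**Figure D1:**
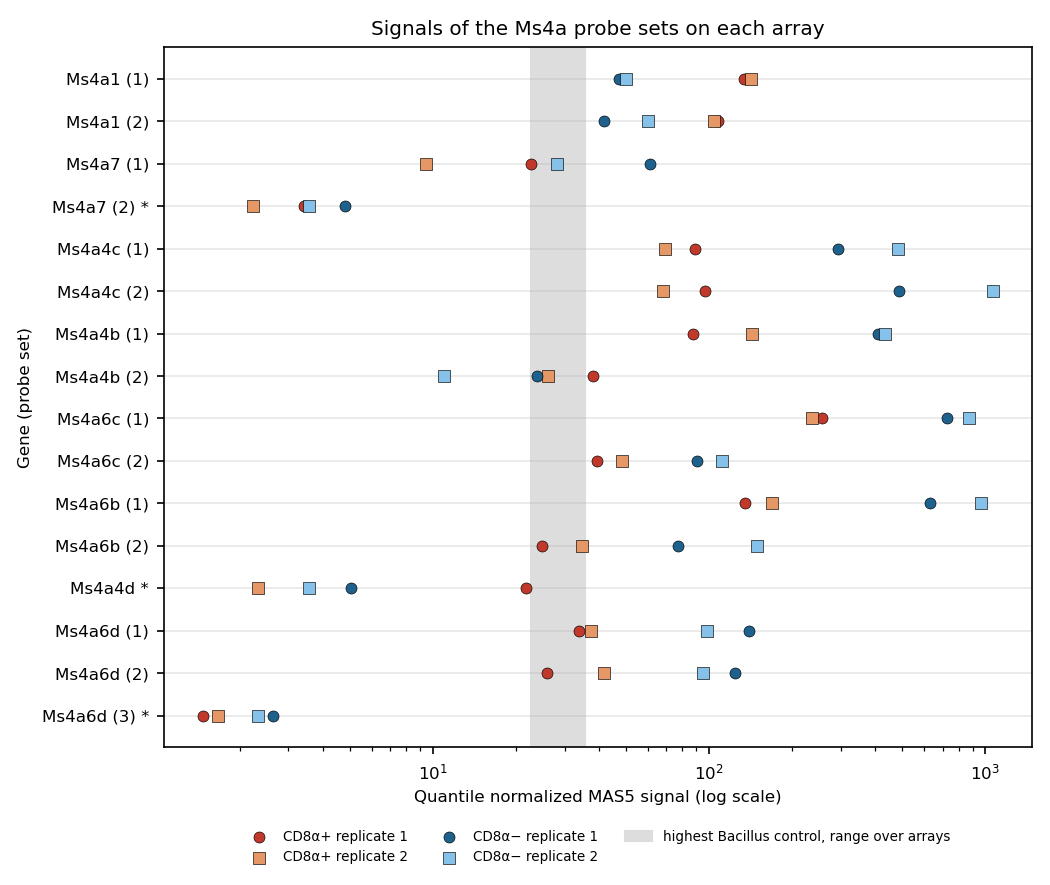
Quantile normalized MAS5 signal (log scale) of each of the 16 Ms4a probe sets on each array, CD8α+ in red and orange and CD8α- in dark and light blue; probe sets of a gene are numbered with the representative one first, and an asterisk marks those too dim to test. The grey band spans the highest Bacillus controls, 22.6 to 35.6. Blue points lie to the right of red ones for Ms4a4c, Ms4a6c, Ms4a6b and Ms4a6d, and to the left for Ms4a1.

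Ms4a1, the B cell antigen CD20, was the member that was brighter in CD8α+ cells. Its representative probe set read 134 and 142 in CD8α+ cells against 47.1 and 50.2 in CD8α- cells, all above background. The replicates of each population lay close together, and the gap between the populations was 2.83-fold (1.50 ± 0.31, limma adjusted p = 0.173). The other Ms4a1 probe set read 108 and 104 against 41.6 and 60.3, a 2.12-fold gap in the same direction (1.08 ± 0.36). Both probe sets thus placed the CD8α+ arrays above the CD8α- arrays. On the representative probe set 5.84% of all tested genes had a difference at least as high.

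Most tested B cell markers lay in the direction opposite to Ms4a1. Of 12 B cell markers, 11 were found by symbol and 7 were tested. Of the 7, 0 were higher and 3, Blk, Bank1 and Pou2af1, lower in CD8α+ cells at an unadjusted p under 0.05. Among all tested genes, 7.18% were higher and 8.84% lower at that level. The summed signal of the 11 was 374 on both CD8α+ arrays and 621 and 689 on the CD8α- arrays. The B cell kinase gene Blk read 44.9 and 37.6 in CD8α+ cells and 144 and 179 in CD8α- cells (-1.96 ± 0.34). Pou2af1, a B cell transcriptional coactivator, read 54.9 and 58.7 against 100.2 and 114 (-0.91 ± 0.31). Both kept the groups apart in the direction opposite to Ms4a1, as did Bank1, Cd79b (-1.06 ± 0.48) and Cd22 (-1.15 ± 0.54). The remaining tested B cell genes, Fcrla and Ebf1, had higher means in CD8α+ cells, with groups that overlapped, and did not pass the test. Fcrla, an Fc receptor-like gene of B cells, read 50.1 and 51.9 against 1.95 and 53.98 (1.36 ± 1.01). Ebf1, an early B cell transcription factor, read 33.1 and 43.5 against 38.05 and 6.15 (1.19 ± 0.86). For both genes the difference rests on 1 low CD8α- array. Cr2, the complement receptor CD21, was too dim to test and exceeded background on CD8α+ replicate 1 alone. Cd79a, a chain of the B cell receptor, exceeded background on 1 CD8α- array and on no CD8α+ array, and Pax5, which specifies B cells, and Vpreb3 exceeded it on none.

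**Figure D2:**
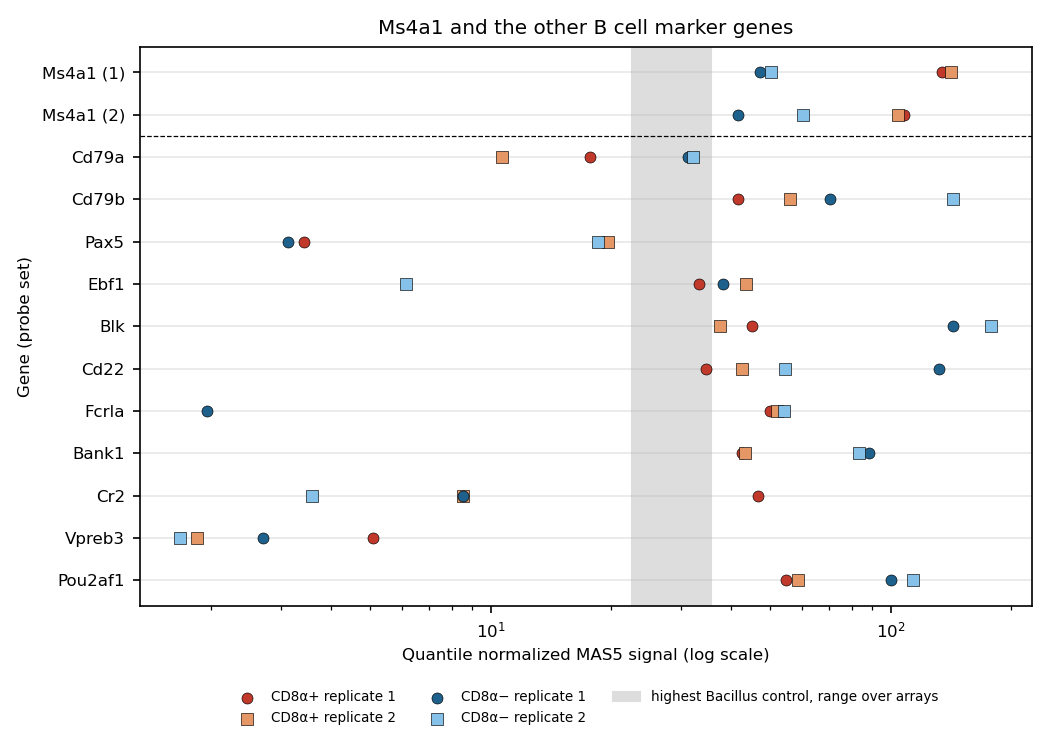
Quantile normalized MAS5 signal (log scale) of both Ms4a1 probe sets, above the dashed line, and of 11 B cell marker genes, on each array; the grey band spans the highest Bacillus controls. For Ms4a1 the CD8α+ arrays (red, orange) lie between 104 and 142 and the CD8α- arrays (blue) between 41.6 and 60.3, while for Blk, Bank1 and Pou2af1 the CD8α- arrays lie to the right.

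Ms4a4c and Ms4a4b are close relatives that lie next to each other in the family's run of genes. Ms4a4c read 88.7 and 69.1 in CD8α+ cells and 293 and 483 in CD8α- cells, a 4.80-fold lower signal (-2.26 ± 0.41, limma adjusted p = 0.149). That probe set is of a type that can match several transcripts. The other one, of a type that can pick up related transcripts, read 96.7 and 67.9 against 485 and 1061, an 8.85-fold gap (-3.15 ± 0.51). The CD8α- replicates differed between themselves by more than the CD8α+ replicates did, and every CD8α- value still exceeded every CD8α+ value. Of all tested genes 1.60% were as low as Ms4a4c on its representative probe set.

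Ms4a4b, known from T cells and natural killer (NK) cells, where it can modulate T cell activation, gave a divided reading. The representative probe set read 87.4 and 143 in CD8α+ cells and 409 and 433 in CD8α- cells, a 3.77-fold lower signal (-1.91 ± 0.39, limma adjusted p = 0.172). The other probe set read 38.1 and 26.1 against 23.9 and 11.0, a difference of 0.96 ± 0.52 (adjusted p = 0.427) the other way. Both CD8α- values of that probe set were below background. With the mean over both probe sets the difference shrank to -0.48. On the scale as deposited, the representative probe set read 184.3 on CD8α+ replicate 2 and 186.8 on CD8α- replicate 2, so on that scale the populations stood apart by little between those arrays.

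Markers of the cells known for Ms4a4b moved unevenly beside it. Of 9 NK cell markers tested, 6 were lower and 0 higher in CD8α+ cells at an unadjusted p under 0.05. Among all tested genes, 8.84% were lower and 7.18% higher at that level. The summed signal of the NK cell markers was 821 and 1036 in CD8α+ cells against 4408 and 2883 in CD8α- cells. Gzma and Klrd1 weighed most in that sum on CD8α- replicate 1, at 1663 and 1747. All 9 NK cell markers were above background on both CD8α- arrays, and 5 on both CD8α+ arrays. Of 8 T cell markers tested, 0 were lower and 0 higher, with sums of 593 and 824 against 641 and 662. Of the 9 T cell markers found by symbol, 5 were above background on both CD8α+ arrays and 6 on both CD8α- arrays. Lat was below background on every array. The part of NK cell RNA in the Ms4a4b values was not tested.

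The windows from 250 bases before to 50 bases after an annotated start are shown for Ms4a4c, Ms4a4b, Ms4a6c and Ms4a6b, since these neighbouring genes were lower together and their start regions are alike in pairs. They come from RefSeq on build GRCm38.p6, where windows were found for 6 of the 8 members, and are written 5′ to 3′ along the gene. Capitals mark the longest exact run that the windows of a pair share, 20 bases for Ms4a4c and Ms4a4b and 48 bases for Ms4a6c and Ms4a6b.
Ms4a4c, chr19:11407411-11407710, + strand: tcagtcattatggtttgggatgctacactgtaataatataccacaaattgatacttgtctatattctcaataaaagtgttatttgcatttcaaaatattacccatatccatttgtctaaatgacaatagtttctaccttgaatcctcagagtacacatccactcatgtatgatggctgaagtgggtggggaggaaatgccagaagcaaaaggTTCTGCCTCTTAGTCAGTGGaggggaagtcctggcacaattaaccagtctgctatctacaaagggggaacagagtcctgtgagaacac
Ms4a4b, chr19:11443308-11443607, + strand: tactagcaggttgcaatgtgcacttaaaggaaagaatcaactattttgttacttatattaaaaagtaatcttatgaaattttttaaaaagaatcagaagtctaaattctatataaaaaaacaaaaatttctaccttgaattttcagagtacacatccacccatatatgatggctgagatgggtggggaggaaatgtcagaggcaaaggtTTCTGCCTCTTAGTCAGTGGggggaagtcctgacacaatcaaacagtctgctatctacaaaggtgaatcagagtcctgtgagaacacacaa
Ms4a6c, chr19:11469118-11469417, + strand: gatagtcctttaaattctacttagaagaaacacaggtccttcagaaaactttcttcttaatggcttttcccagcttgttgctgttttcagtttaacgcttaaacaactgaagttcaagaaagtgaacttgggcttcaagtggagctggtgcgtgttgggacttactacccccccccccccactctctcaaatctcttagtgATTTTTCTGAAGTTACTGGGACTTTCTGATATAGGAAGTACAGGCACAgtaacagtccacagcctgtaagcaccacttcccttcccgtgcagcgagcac
Ms4a6b, chr19:11518309-11518608, + strand: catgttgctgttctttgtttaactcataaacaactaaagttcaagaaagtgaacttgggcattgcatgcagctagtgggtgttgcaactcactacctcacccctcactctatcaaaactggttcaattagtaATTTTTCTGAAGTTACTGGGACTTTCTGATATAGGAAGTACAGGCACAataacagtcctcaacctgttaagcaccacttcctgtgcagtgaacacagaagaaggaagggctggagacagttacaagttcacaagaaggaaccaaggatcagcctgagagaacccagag

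Over a global alignment the Ms4a4c and Ms4a4b windows were 72.1% identical, the Ms4a6c and Ms4a6b windows 51.2%, and the remaining pairs of member windows 44.8% to 50.7%. Each shared run was found in 2 of the 32851 promoter windows of the table, those of the pair itself. In the Ms4a6c window the 48 bases end 2 bases before the start, and in the Ms4a6b window they end 71 bases before it. The pairs therefore share sequence, but at different distances from the annotated starts of Ms4a6c and Ms4a6b.

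Windows were searched on both strands for GAGGAA (the core of PU.1 and other Ets factors), TGACTCA (AP-1), TTGCNNAA (C/EBP) and the interferon regulatory factor element of GAAA repeated after any 2 bases. GAGGAA was found once in each of the windows of Ms4a4c and Ms4a4b, starting 61 and 64 bases before the start, and in 1 of 2 windows of Ms4a7. It is held by 28.3% of all windows in the table. TTGCNNAA was found in the Ms4a4d window and in 10.8% of all. Neither the interferon regulatory factor element (3.44% of all) nor TGACTCA (5.20%) was found in the 7 windows of members.

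The Ms4a6 genes were lower in CD8α+ cells on every tested probe set. Ms4a6b, known also from T cells, read 135 and 169 in CD8α+ cells and 631 and 968 in CD8α- cells, a 5.17-fold lower signal (-2.37 ± 0.39, limma adjusted p = 0.134). This was the lowest difference among the representative probe sets of the members, and 1.37% of all tested genes were as low. A further Ms4a6b probe set read 24.8 and 34.8 against 77.3 and 149 (-1.87 ± 0.47), with 1 CD8α+ array below background. Both probe sets kept the populations apart.

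Ms4a6c read 257 and 236 in CD8α+ cells and 725 and 874 in CD8α- cells, a 3.23-fold lower signal (-1.69 ± 0.32, limma adjusted p = 0.157). Its other probe set read 39.3 and 48.4 against 90.5 and 112, a 2.30-fold gap in the same direction (-1.20 ± 0.34). Replicates lay close together in both populations, and all 8 of these values were above background. As deposited, the representative probe set read 311.0 on CD8α+ replicate 2 and 384.0 on CD8α- replicate 2, and the difference shrank to -0.72 on that scale and to -0.71 with median centring.

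Ms4a6d, a gene of macrophages, read 33.8 and 37.4 in CD8α+ cells and 139 and 98.6 in CD8α- cells, a 3.30-fold lower signal (-1.72 ± 0.35, limma adjusted p = 0.172). The CD8α+ values were above the backgrounds of their arrays, 31.8 and 22.6, that of replicate 1 only just. A second probe set of Ms4a6d, of a type that can match several transcripts, read 25.9 and 41.7 against 124 and 94.98 (-1.72 ± 0.40), with 1 CD8α+ array below background. The remaining Ms4a6d probe set read at most 2.65 on any array and was not tested. In contrast to Ms4a6b and Ms4a4c, CD8α- replicate 1 was brighter than CD8α- replicate 2 on both tested Ms4a6d probe sets.

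Ms4a7, a macrophage gene, was near background. Its tested probe set read 22.7 and 9.48 in CD8α+ cells and 61.1 and 28.1 in CD8α- cells, and 1 of the 4 values, that of CD8α- replicate 1, exceeded background. The difference of -1.50 ± 0.64 (limma adjusted p = 0.357) rests on signals within background, so no fold is given, and it was -0.81 without CD8α+ replicate 2. Leaving out the other CD8α+ array made it -2.12, and a fit lacking the second CD8α- array gave -2.08. The other Ms4a7 probe set read at most 4.80. Ms4a4d read 21.7 and 2.33 in CD8α+ cells and 5.08 and 3.58 in CD8α- cells, below background on all 4 arrays, so the data hold no measured level of it.

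Monocyte and macrophage markers were lower beside these genes in part. Of 8 monocyte markers tested, 3, Csf1r, Cx3cr1 and Ace, were lower and 0 higher in CD8α+ cells at an unadjusted p under 0.05. Among all tested genes, 8.84% were lower and 7.18% higher at that level. Summed signals of the monocyte markers were 4417 and 4522 against 7858 and 10874. Lyz2, the brightest of them, read 2250 and 2301 against 3454 and 4585. Csf1r read 231.9 and 231.6 in CD8α+ cells and 1400.8 and 2004.5 in CD8α- cells. Of 6 macrophage markers tested, 4 were lower and 1, Vcam1, higher, with sums of 1777 and 1827 against 2770 and 4241. Adgre1, Cd68 and Spic were among the lower ones and were above background on every array. Adgre1 read 59.2 and 74.0 in CD8α+ cells and 373.7 and 398.5 in CD8α- cells. Adgre1, Cd68, Spic, Vcam1 and Hmox1 were tested on the probe sets that enter these sums. The remaining tested marker, also among the 4 lower ones, was tested on a different probe set. On the probe sets in the sums, the complement genes C1qa and C1qb exceeded background on CD8α- replicate 2 alone, and C1qc and Marco on no array. A gene that is dim there may thus be the one tested on another probe set. The part of monocyte or macrophage RNA in the Ms4a6d and Ms4a7 values was not tested.

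**Figure D3:**
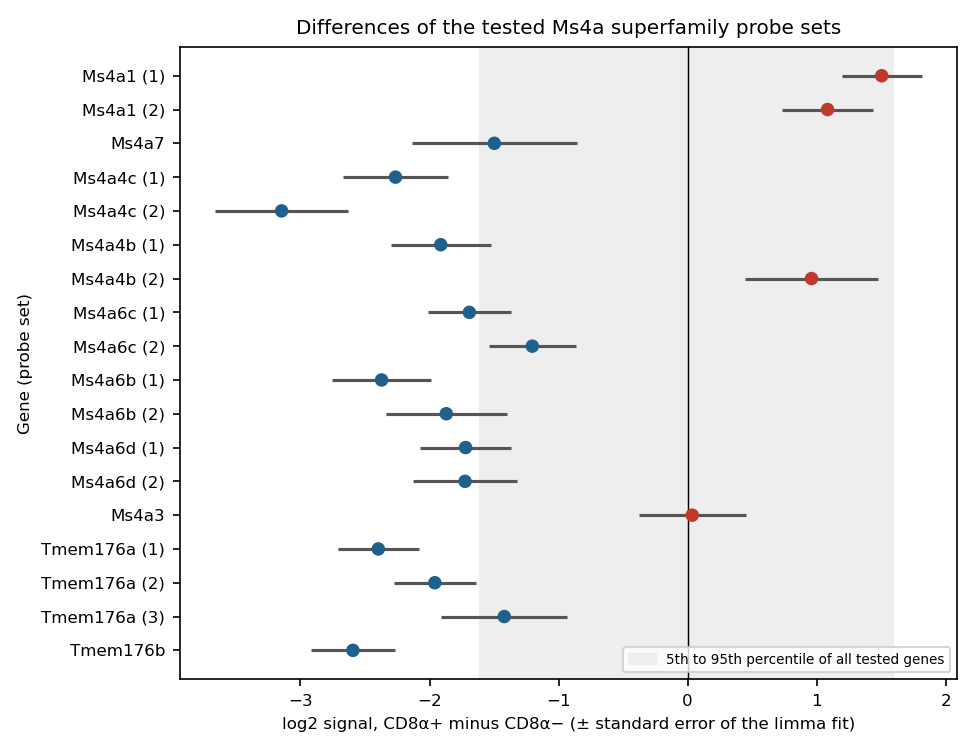
Difference in log2 signal, CD8α+ minus CD8α-, with the standard error of the limma fit as bars, for each tested probe set of the Ms4a members, of Ms4a3 and of Tmem176a and Tmem176b; the grey band spans the 5th to 95th percentile of all tested genes, -1.61 to 1.59. Blue points are below 0 and red points above; of the 13 member probe sets 10 lie below 0, and the 3 above are both of Ms4a1 and 1 of Ms4a4b.

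The probe sets of a gene mostly pointed the same way. Of 13 tested member probe sets, 10 were lower in CD8α+ cells and 3 higher, each with groups that did not overlap, against 26.2% of all tested probe sets lower and 26.1% higher without overlap. There were 6 members with more than 1 tested probe set, and in 5 of these the direction was shared. Ms4a4b was the exception. Members read by the same kind of short probe can share sequence, and how far Ms4a4b and Ms4a4c, or the Ms4a6 genes, are read by each other's probes was not tested.

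Outside the 8 members, 9 more Ms4a genes were found on the array, with 10 probe sets, and 1 of them, Ms4a3, was bright enough to test. Ms4a3, a gene of granulocyte and monocyte progenitors, read 32.5 and 42.4 in CD8α+ cells and 46.7 and 28.1 in CD8α- cells (0.04 ± 0.41, adjusted p = 0.974), and its groups overlapped. Both Ms4a2 probe sets were below background on every array. The related genes Tmem176a and Tmem176b, whose products resemble Ms4a proteins and are known from conventional dendritic cells, lay in the same direction as the Ms4a4 and Ms4a6 genes. Tmem176b read 237 and 244 in CD8α+ cells and 1304 and 1617 in CD8α- cells, a 6.03-fold lower signal (-2.59 ± 0.32, adjusted p = 0.113). The representative of 3 Tmem176a probe sets read 274 and 284 against 1365 and 1577 (-2.40 ± 0.32), and the other Tmem176a probe sets gave -1.96 ± 0.32 and -1.42 ± 0.49.

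The mouse Ms4a genes lie on chromosome 19. In the order of the RefSeq table, the run from the first to the last of them holds 21 Ms4a genes. It also holds 11 other genes, 1 of them protein-coding. From Ms4a1 onward the order of the Ms4a genes is Ms4a1, Ms4a5, Ms4a14, Ms4a7, Ms4a4a, Ms4a4c, Ms4a4b, Ms4a6c, Ms4a6b, Ms4a4d, Ms4a6d, Ms4a2 and Ms4a3. The lower genes thus lie between Ms4a1 on one side and Ms4a3 on the other, and on the representative probe sets each tested Ms4a gene from Ms4a7 to Ms4a6d had the lower signal in CD8α+ cells. The other probe set of Ms4a4b lay the other way. The 6 nearest tested genes on each side of the run, taken by a rule set after the values were seen, had differences from -1.37 to 2.94 with a median of 0.29. Neighbours beyond the run therefore lay in both directions.

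**Figure D4:**
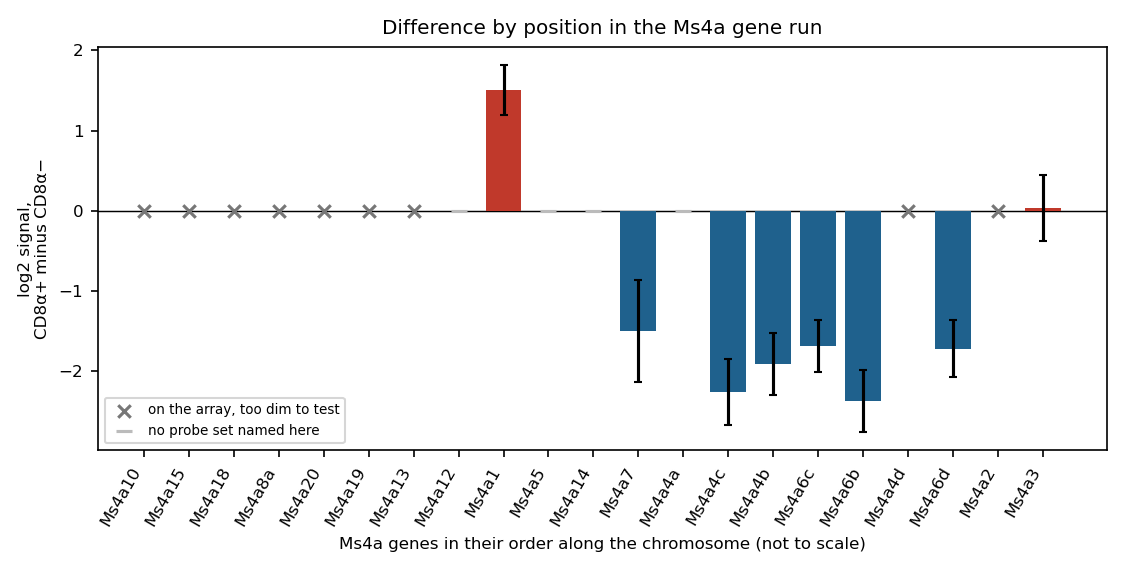
Difference in log2 signal, CD8α+ minus CD8α-, of each Ms4a gene in its order along the chromosome (not to scale), with the standard error of the limma fit; crosses mark genes too dim to test and dashes genes with no probe set named here. The bars from Ms4a7 to Ms4a6d run from -1.50 to -2.37, with Ms4a1 at 1.50 and Ms4a3 at 0.04.

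The pattern of Ms4a6c, taken by a rule on mean signal that says nothing of its transcript level against other members, was set against 7114 genes above background on all 4 arrays, by the root mean square difference of log2 signals around each gene's own mean. The closest were Pfas (0.06), Pou2f2 (0.07), Pmvk (0.07), Def6 (0.09) and Dhx34 (0.09), with a median over the genes of 0.86. The other Ms4a genes were less close, with Ms4a6d at 0.29, Ms4a4b at 0.32, Ms4a4c at 0.34, Ms4a6b at 0.40 and Ms4a1 at 1.60. In that order they ranked 192, 250, 288, 438 and 6795 of the 7114 genes by closeness. With 4 arrays such a likeness is a description of these samples.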

How the data were processed

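RNA of CD8α+ and CD8α- spleen dendritic cells was hybridized to Affymetrix Mouse Genome 430 2.0 chips, according to the design text. The authors deposited linear intensity values, namely MAS5 signals of single arrays, per the submitters' processing notes. Their scaling target was not given in the sources used here, and the number of arrays limits the precision. The series' design text and the labels' protocols name different RNA extraction and labelling kits, and these data do not settle it. Since overall signal differed between arrays, they were quantile normalized.

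Of 45101 probe sets, 64 controls were left out; 34945 had 1 gene symbol in the platform annotation, 932 several and 9160 none. Values under 7.28, the mean 25th percentile, were set to it before the log2 transform, and the filter at the median was applied, which left 22519 tested. A gene was represented by its brightest tested probe set, names ending in _x_at last. The fit used limma 3.58.1 under R 4.3.3 (2 residual and 2.51 prior degrees of freedom, two-sided) and covered all tested probe sets. It was also run on simulated data with equal noise on every array and changes in bright probe sets only. The arrays here were unequally alike, so that run does not measure how well the fit works on them. Tables were made with Python 3.11.15, pandas 2.3.3 and matplotlib 3.10.9. The text names every listed member, the other Ms4a and Tmem176 genes, and the 5 genes most like Ms4a6c, taken for its mean signal. The members and lists were chosen with earlier results of these data known. No protein table was used, so the planned protein comparison was left out. The alternatives were 3 scalings, 2 filters, a lower floor, an intensity trend, a mean over probe sets, a replicate block and leaving out each array.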

Additional observations from a re-analysis of the deposited data

How the results depend on the processing

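All 7 tested members kept their direction under every alternative that gave a value. Counts of members at an unadjusted p under 0.05 were 3 on the deposited scale (12.95% of all genes) and 3 to 6 with an array left out (5.77% to 45.05%), and the median difference was -1.23 on the deposited scale, -1.23 with median centring and -1.95 to -1.63 with an array left out. On the deposited scale the 6 lower members lay between -1.43 and -0.72 and Ms4a1 at 2.03. Members whose groups lay apart numbered 6 or 7 with an array left out, where 65.6% to 89.8% of all genes did. Leaving out CD8α- replicate 1 took Ms4a7 below the filter. It gave differences of 1.56 for Ms4a1, -1.99 for Ms4a4b, -2.69 for Ms4a4c, -2.69 for Ms4a6b, -1.83 for Ms4a6c and -1.61 for Ms4a6d. That fit rests on 1 CD8α- array, replicate 2, which was dim as deposited and had the high Gapdh ratio. The lone CD8α- array is assumed there to vary like the CD8α+ pair. Probe sets with an adjusted p under 0.05 numbered 60 with an intensity trend, 406 with median centring, 34 with the stricter filter and 0 to 3371 with an array left out, the highest without CD8α- replicate 1. With a replicate block there were 27, and 6 members lower and 1 higher at an unadjusted p under 0.05, as were 16.2% of all genes in either direction. Same-numbered arrays did not visibly deviate together (r = 0.0312 across probe sets). With 1 such contrast per population, this cannot decide whether the numbers pair the samples. Without a filter Ms4a4d had a difference of 0.79, within background. The causes were not tested. Signals near background limit Ms4a7 and Ms4a4d and 1 probe set of Ms4a4b.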
